A study of Triticum aestivum with 9 samples.

Results

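Wheat grain stores small proteins that block the enzymes of insects, fungi and the grain itself. This account follows 3 inhibitor genes, XIP-I (LOC542997), WMAI-1 (LOC542981) and ATI (LOC543286), together with wci (LOC542996). They were chosen as every probe set that the platform's probe-to-gene table gives to these genes, which made 7 of 61115 wheat probe sets and 4 of 771 named genes. XIP-I has 2 probe sets, ATI 3, and WMAI-1 and wci 1 each. No member was lost, since all 7 passed the filter on low signal, which left 36669 probe sets to test.

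The samples were whole developing grains of 1 field-grown bread wheat cultivar, Jimai 20, measured on an Affymetrix wheat GeneChip, where a set of short oligonucleotides reads each transcript. Grain was taken 11 (P1), 15 (P2) and 20 (P3) days post-anthesis, with 3 biological replicates per phase and 1 array for each, 9 arrays in all. The labels name no genetic change and no treatment, and the cultivar and field management were shared by all groups. They describe plots as the replicates, and do not say whether a replicate number marks 1 plot followed through the phases.

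Amylase inhibitors of cereals, such as WMAI-1 and ATI, are compact cysteine-rich proteins of the starchy endosperm that accumulate beside the storage proteins. WMAI-1 is the wheat monomeric inhibitor known for acting on insect alpha-amylases, while proteins of the ATI type can block alpha-amylase or trypsin, a protease. XIP-I resembles plant chitinases in fold but inhibits xylanases, the fungal enzymes that cut the arabinoxylan of cell walls. The tables used here give wci no other name and no product, so no role is stated for it.

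In an Affymetrix name the ending _at marks a probe set designed to be unique, _s_at one whose probes match several transcripts and _x_at one with some probes shared with other sequences. Bread wheat carries 3 related subgenomes and these genes belong to families, so each signal may include related copies. Probe sets of the same gene were read from the same arrays and are not replicates of each other.

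The 4 genes took 3 courses. XIP-I rose from P1 to P3 on both probe sets, 4.64-fold and 4.28-fold. The single wci probe set fell 2.56-fold, all of it between P1 and P2. WMAI-1 and the 3 ATI probe sets did not pass the test in any comparison. A probe set was called at an adjusted p under 0.05 by limma and a change of at least 2-fold, and the words rose, fell and changed describe such calls alone. From P1 to P3 that made 2 of 7 higher and 1 lower. Among all probe sets tested 13.1% were called, 8.36% higher and 4.76% lower. Arrays of P1 and P3 did not overlap in 4 of the 7, against 47.7% of all. The F test over the 3 phases called 3 of 7, against 45.2%. The median log2 change of the 7 was 0.14, against 0.07 over all probe sets tested. In grain as a whole, a change in the number of cells of a type and a change in RNA per cell cannot be told apart.

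**Figure D1:**
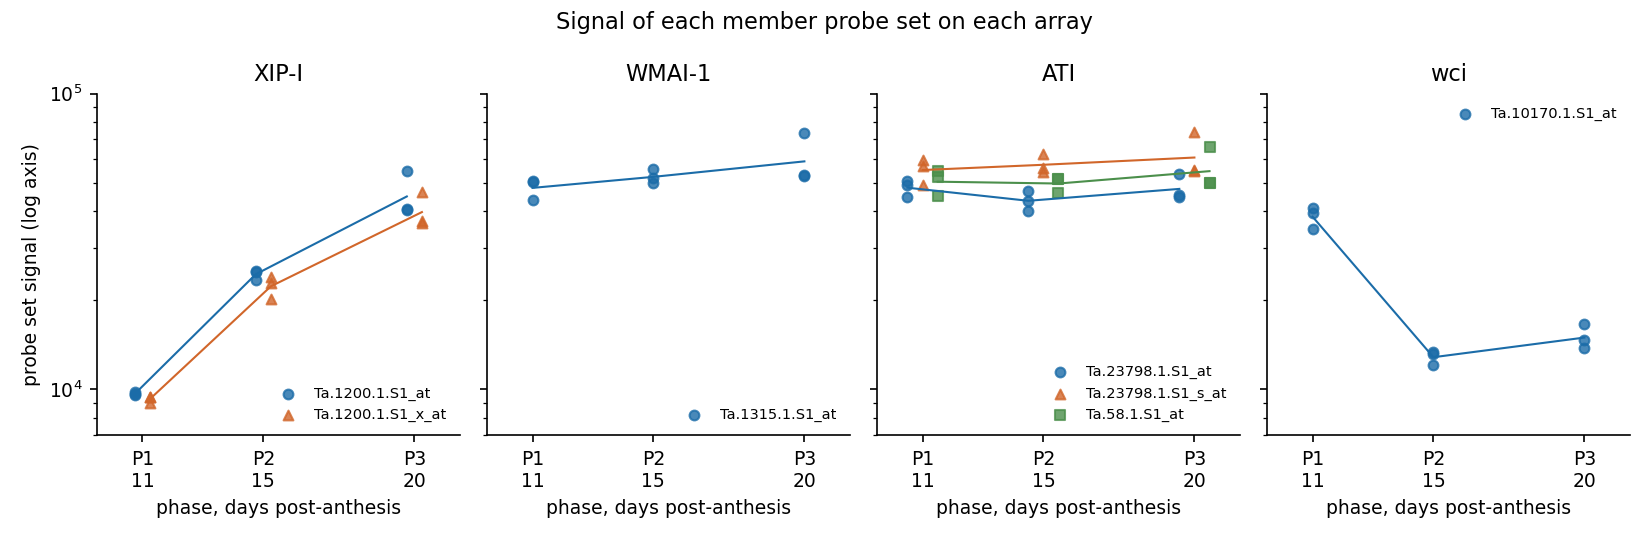
Probe set signal on each of the 9 arrays (log axis) against days post-anthesis, 1 panel per gene. Each point is an array, colours and shapes mark the probe sets of a gene, and lines join the geometric means. XIP-I climbs at both steps, wci drops once, and WMAI-1 and ATI move less, with 1 high array at P3. For WMAI-1 all P3 arrays lie above those of P1.

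Signals of the XIP-I probe set Ta.1200.1.S1_at were 9586, 9669 and 9775 on the P1 arrays, 25023, 25099 and 23452 on those of P2 and 40479, 40817 and 54749 on those of P3. No array of one phase overlapped another phase. The phase means were 9677 ± 94.4 (SD, n = 3), 24524 ± 930 and 45348 ± 8143. The second probe set, Ta.1200.1.S1_x_at, stood at 9462, 9442 and 8979, then at 22878, 23971 and 20262, then at 36438, 37218 and 46311. Its phases were just as separate, in the same order. On its own array, Ta.1200.1.S1_at moved from rank 1222 to 1256 among the 61115 probe sets at P1 to rank 104 to 129 at P3.

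From P1 to P2 the log2 change of XIP-I was 1.34 (SE 0.10, 2.53-fold, adjusted p = 7.67e-07 by limma) on Ta.1200.1.S1_at and 1.26 (SE 0.10, 2.40-fold, adjusted p = 7.37e-07) on Ta.1200.1.S1_x_at. From P2 to P3 it was 0.87 (SE 0.10, adjusted p = 5.2e-05) and 0.83 (SE 0.10, adjusted p = 4.62e-05). At 1.83-fold and 1.78-fold the later step passed the test on p and missed the 2-fold criterion, so it was not called. Over the whole course, P3 against P1, the log2 change was 2.21 (SE 0.10, adjusted p = 4.65e-09) and 2.10 (SE 0.10, adjusted p = 4.23e-09). From P1 to P2, 3 of 7 members were called (2 higher, 1 lower), against 12.7% of all probe sets tested (6.89% higher, 5.79% lower). From P2 to P3, 0 of 7 were called by limma, against 7.23% (4.46% higher, 2.77% lower). Arrays did not overlap in 3 of 7 members in each of these steps, against 46.1% and 40.3% of all, so separation by itself is common here.

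The steps are 4 and 5 days long. Per day, the log2 change of Ta.1200.1.S1_at was 0.34 over the first step and 0.17 over the second. The contrast of the second step with the first, taken per step and not per day, gave a log2 difference of -0.47 (95% interval -0.85 to -0.08, adjusted p = 0.0696 by limma) and -0.43 on the other probe set (-0.79 to -0.07, adjusted p = 0.0745). Neither was called, in a contrast where 27.7% of all probe sets were (15.3% higher, 12.4% lower), at an adjusted p under 0.05 with no fold criterion. Both were called without P3 replicate 3, at -0.61 (adjusted p = 0.000434) and -0.54 (adjusted p = 0.00546), and under quantile normalization, at -0.66 and -0.57. Ta.1200.1.S1_x_at was also called without P2 replicate 3 (-0.57, adjusted p = 0.0414), and both with dim signals raised to background (adjusted p = 0.0489 and 0.0490). With poly-A scaling the contrast reversed, to 1.37 (adjusted p = 1.54e-05) and 1.41 (adjusted p = 7.57e-06), both called, so which step was the larger depends on the scaling.

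The phases differ in their control transcripts, and the P2 arrays stand apart in the poly-A controls. Poly-A controls are RNAs spiked in before labelling. Their 3-prime signal exceeded their 5-prime signal by a mean log2 value of 2.20 ± 0.11 (SD, n = 3) in P1 arrays, 1.44 ± 0.15 in P2 arrays and 2.14 ± 0.02 in P3 arrays. For 4 wheat control transcripts the excess was 3.32 ± 0.24, 2.11 ± 0.09 and 2.53 ± 0.07, so there the P1 arrays lay farthest from the rest. With that wheat excess as a covariate, the log2 change of XIP-I from P1 to P2 was 1.23 (SE 0.43, adjusted p = 0.286) and 1.03 (SE 0.40, adjusted p = 0.358), which ended both calls as standard errors widened. From P1 to P3 it was 2.14 (SE 0.29, adjusted p = 0.000921) and 1.94 (SE 0.27, adjusted p = 0.0011), still called. The wheat excess did not overlap between phases (3.16 to 3.59 on P1 arrays, 2.02 to 2.21 on P2 and 2.49 to 2.61 on P3). This fit therefore cannot fully tell it from phase. The part of RNA quality or of labelling in the differences between phases, P1 against P3 included, was not tested.

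The wci probe set, Ta.10170.1.S1_at, gave signals of 41122, 39441 and 34780 on the P1 arrays, 12067, 13361 and 13170 on the P2 arrays and 14645, 13793 and 16630 on the P3 arrays. All P1 arrays lay far above the others, and the P3 arrays lay just above those of P2. Means were 38448 ± 3285 (SD, n = 3), 12866 ± 698 and 15023 ± 1456. Its rank on an array moved from 91 to 121 at P1 to 808 to 919 at P2. From P1 to P2 the log2 change was -1.58 (SE 0.09, adjusted p = 4.28e-08 by limma), a 2.98-fold fall, and from P1 to P3 it was -1.36 (SE 0.09, adjusted p = 1.17e-07). From P2 to P3 it was 0.22 (95% interval 0.03 to 0.41, adjusted p = 0.0876), not called.

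For wci the second step differed from the first by a log2 difference of 1.80 (SE 0.15, adjusted p = 3.84e-06 by limma). In that contrast 1 of 7 members was called, against 27.7% of all probe sets tested (15.3% higher, 12.4% lower). With the wheat 3-prime excess as covariate, values were -2.10 (SE 0.34, adjusted p = 0.00977) from P1 to P2 and -1.70 (SE 0.23, adjusted p = 0.000816) from P1 to P3. Over all alternatives the log2 change from P1 to P3 ranged from -1.70 to -1.20 and was called in 22 of 22.

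**Figure D2:**
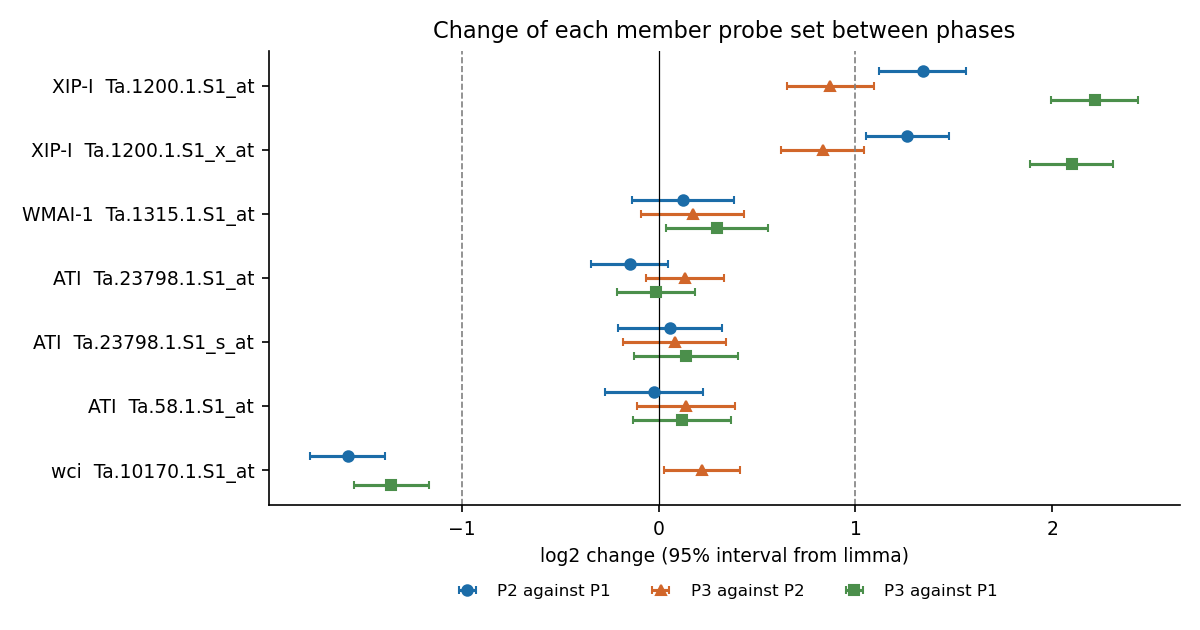
Log2 change of each of the 7 probe sets in each comparison, with limma's 95% interval, and dashed lines at the 2-fold criterion. XIP-I lies to the right and wci to the left for P2 against P1 and P3 against P1, while the intervals of WMAI-1 and ATI stay inside the dashed lines in all 3 comparisons.

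WMAI-1, on Ta.1315.1.S1_at, gave signals of 50060, 50522 and 43686 on the P1 arrays, then 51709, 55421 and 49873, then 52905, 52827 and 73404. The P2 arrays overlapped both neighbours, all P3 arrays lay above those of P1, and 1 P3 array stood well above the rest. Means were 48090 ± 3821 (SD, n = 3), 52334 ± 2826 and 59712 ± 11858. The log2 change from P1 to P3 was 0.30 (95% interval 0.04 to 0.56), with an unadjusted p of 0.0285 and an adjusted p of 0.0745 by limma. The interval holds changes from 1.03-fold to 1.47-fold and leaves out 2-fold. By step it was 0.12 from P1 to P2 (adjusted p = 0.474) and 0.17 from P2 to P3 (adjusted p = 0.333). Without P3 replicate 3 the log2 change from P1 to P3 was 0.14 (adjusted p = 0.188), and with the 3-prime covariate it was -0.08 (adjusted p = 0.938). With poly-A scaling it was 0.46 (adjusted p = 0.00914 by limma), below 2-fold. Its sign changed in 1 of 22 alternatives, the fit with the covariate.

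The ATI probe set Ta.23798.1.S1_s_at had 59817, 57107 and 49059 on the P1 arrays, then 55826, 62470 and 54330, then 55062, 54881 and 74248. All 3 phases overlapped. Ta.58.1.S1_at had 54530, 52141 and 44902, then 51447, 51419 and 46244, then 49937, 49651 and 65870. Ta.23798.1.S1_at had 49000, 50601 and 44758, then 43473, 46779 and 40204, then 45321, 44570 and 53413. Again the phases overlapped on both. Mean signals over P1, P2 and P3 were 55328 ± 5596 (SD, n = 3), 57542 ± 4333 and 61397 ± 11130 for the first of these, 50524 ± 5013, 49704 ± 2996 and 55153 ± 9282 for the second and 48120 ± 3019, 43485 ± 3287 and 47768 ± 4904 for the third, with the widest spread at P3.

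From P1 to P3 the log2 changes of the 3 ATI probe sets were 0.14 (95% interval -0.12 to 0.40, adjusted p = 0.419 by limma), 0.12 (-0.13 to 0.37, adjusted p = 0.476) and -0.01 (-0.21 to 0.18, adjusted p = 0.932), in the order in which their signals are given. Each interval leaves out 2-fold in either direction. From P1 to P2 they were 0.06, -0.02 and -0.15 (adjusted p = 0.753, 0.913 and 0.244) and from P2 to P3 0.08, 0.14 and 0.13 (adjusted p = 0.683, 0.427 and 0.325). Under quantile normalization Ta.23798.1.S1_at had a log2 change of -0.26 both from P1 to P2 (adjusted p = 0.00266) and from P1 to P3 (adjusted p = 0.00243), below 2-fold. The signs of the ATI values from P1 to P3 are not settled: they changed in 6, 6 and 5 of 22 alternatives, in the same order. Without P3 replicate 3 the log2 values from P1 to P3 were -0.00, -0.02 and -0.10. Signs changed in 8, 3 and 0 of 22 alternatives from P1 to P2 and in 1, 0 and 1 from P2 to P3. LOC543281, a second gene with ATI as its synonym and not a member, had means of 50754 ± 6300 (SD, n = 3), 60952 ± 2726 and 59215 ± 11667 and a log2 change of 0.21 from P1 to P3 (adjusted p = 0.234), not called.

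WMAI-1 and ATI sit among the brightest probe sets of each array. Across the 9 arrays WMAI-1 ranked 27 to 47 of 61115, Ta.23798.1.S1_s_at 16 to 32, Ta.58.1.S1_at 25 to 69 and Ta.23798.1.S1_at 36 to 119. Taking the 226 probe sets whose mean signal exceeded 30000, 8.41% were called from P1 to P3, 18 higher and 1 lower, with a median absolute log2 change of 0.21. Whether such bright spots respond in proportion to transcript level was not tested, and a rank also depends on how well a probe set binds.

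P3 replicate 3 carried the highest P3 signal in 7 of 7 member probe sets, by a log2 difference of 0.23 to 0.47 over the mean of the other P3 arrays. Of the 226 bright probe sets, 98.2% were above those arrays there, by a median of 0.33, while the median over all probe sets was -0.02. At P1 replicate 3, 5.31% of bright probe sets lay above the other arrays (median -0.14). Without P3 replicate 3 the log2 change of XIP-I from P1 to P3 was 2.07 and 1.99 and that of wci -1.43, each called. With quantile normalization as well they were 2.03, 1.97 and -1.51, each called, an alternative chosen after seeing the data.

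**Figure D3:**
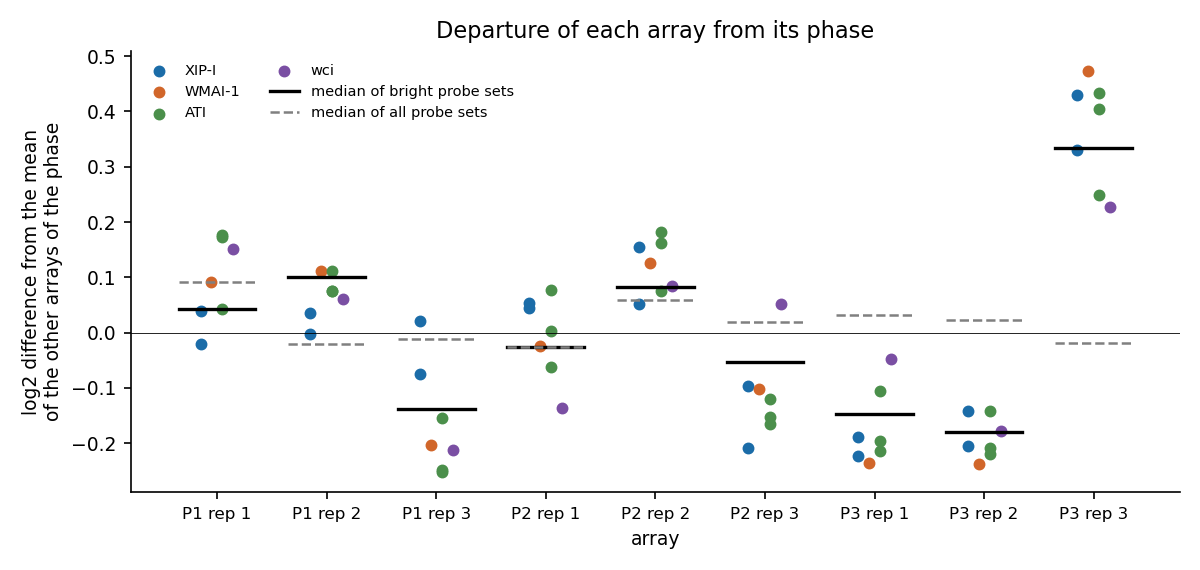
Log2 difference of each array from the mean of the other arrays of its phase. Points are the 7 member probe sets, the black bar is the median of the 226 bright probe sets and the dashed bar the median of all. P3 replicate 3 stands apart for the members and the bright probe sets, by 0.23 to 0.47 and 0.33, and not for the median of all probe sets.

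Ratios between members on the same array do not depend on scaling by a single factor per array, though they can move under quantile normalization. They were taken between the brightest probe sets of 2 genes and set to 0 at the P1 mean, as a description with no test. Relative to wci, XIP-I lay at a log2 ratio of -0.11, -0.04 and 0.16 on the P1 arrays, 2.82, 2.90 and 3.04 at P2 and 3.45, 3.55 and 3.71 at P3, from lowest to highest. The change from P1 to P3 was 3.57, or 11.9-fold, of which 2.92 came by P2. The highest of the P3 values, 3.71, belongs to P3 replicate 3.

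Relative to ATI, XIP-I went up by 1.28 from P1 to P2 and by 2.07 from P1 to P3, with P3 arrays between 2.07 and 2.08. Relative to WMAI-1 it went up by 1.22 and 1.92. The ratio of WMAI-1 to ATI moved little, by 0.06 to P2 and 0.16 to P3, with the P3 arrays (0.14, 0.15 and 0.18) above those of P1 (-0.06, 0.02 and 0.03) and P2 (0.03, 0.08 and 0.09). The ratio of WMAI-1 to wci was 3.25-fold higher at P2 and 3.15-fold higher at P3 than at P1, and that of ATI to wci 3.11-fold and 2.82-fold higher. For both, the P2 and P3 arrays overlapped.

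**Figure D4:**
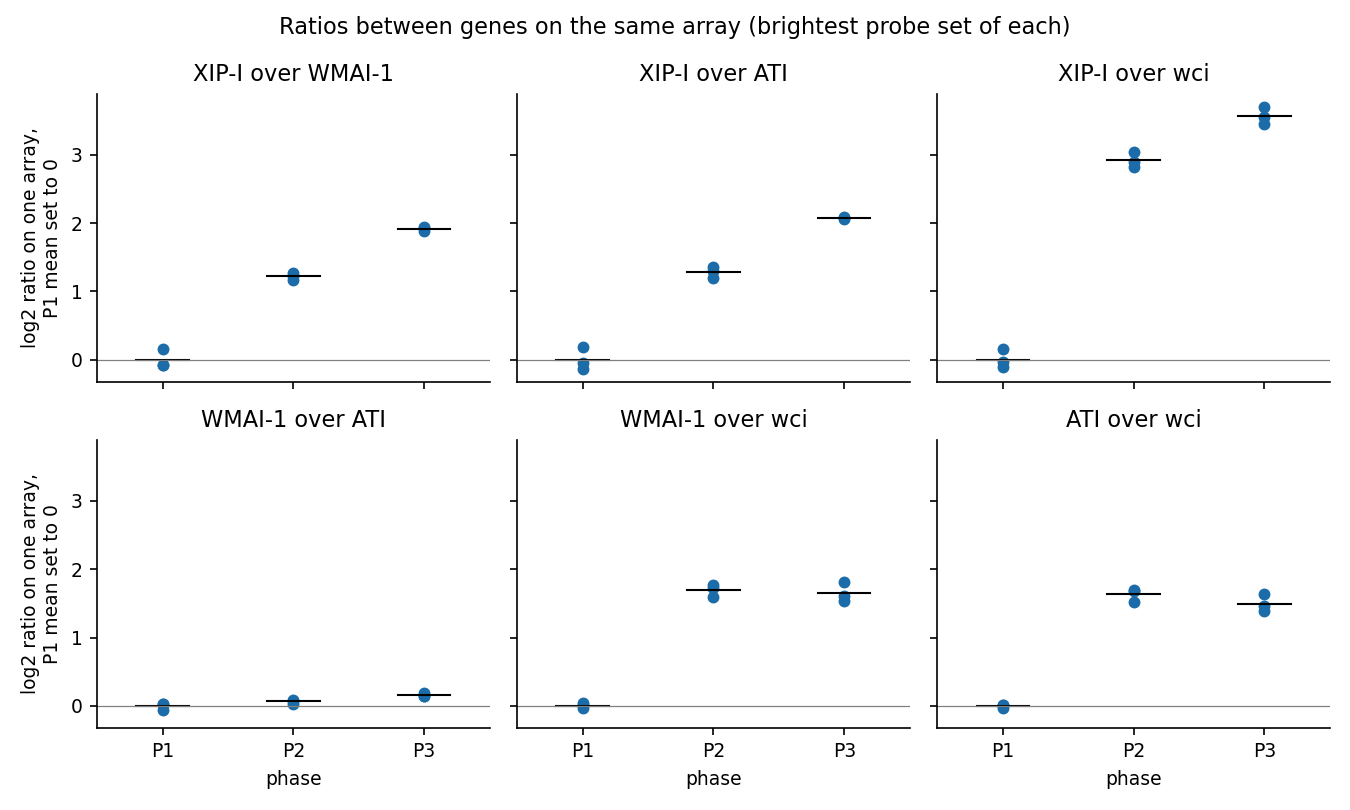
Log2 ratio between the brightest probe sets of 2 genes on the same array, with the P1 mean set to 0. Points are arrays and bars are means of 3. XIP-I gains on each other gene at both steps, WMAI-1 and ATI gain on wci only by P2, and WMAI-1 over ATI shifts by 0.16 from P1 to P3.

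Ratios between probe sets of the same gene also moved. The log2 ratio of Ta.1200.1.S1_at to Ta.1200.1.S1_x_at moved by 0.08 from P1 to P2 and by 0.12 from P1 to P3, the latter with no overlap of arrays, where the changes of XIP-I itself from P1 to P3 were 2.21 and 2.10. Within ATI, Ta.23798.1.S1_at over Ta.23798.1.S1_s_at moved by -0.21 from P1 to P2, with no overlap of arrays, and by -0.15 from P1 to P3, with overlap. The first of these is larger than any log2 change of an ATI probe set in that step (0.06, -0.02 and -0.15). Ta.23798.1.S1_at over Ta.58.1.S1_at moved by -0.13 and -0.13, with overlap. Ta.23798.1.S1_s_at over Ta.58.1.S1_at moved by 0.08, with overlap, and by 0.02, without.

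The named genes most like each member were sought by Pearson correlation of log2 signal over the 9 arrays, which share phases and array effects, among 1029 to 1031 probe sets with 1 gene symbol. For XIP-I they were TTHV, a thionin gene (r = 0.996, with signals of 13542, 30832 and 49900 at P1, P2 and P3), LOC542799 (r = 0.996) and LOC542830 (r = 0.994). For wci they were LOC778388 (r = 0.996, with 31787, 12997 and 14712), LOC542857 (r = 0.996) and LOC542858 (r = 0.992). For ATI they were LOC542913 (r = 0.980), LOC606361 (r = 0.957) and WMAI-1 (r = 0.932). For WMAI-1 they were LOC100125699, LOC606361 and LOC606340, at r = 0.965 to 0.959. The LOC genes carry no other name in the tables used here.

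Other inhibitor and defence genes were read from the same fit. Among all probe sets tested, 8.36% were called higher and 4.76% lower from P1 to P3. Of the 5 probe sets of 4 serpin genes, whose proteins trap proteases, 3 rose and 0 fell between P1 and P3. Their median log2 change was 2.37 against 0.07 over all probe sets tested. The highest was Serpin-Z1C (2.72, SE 0.15, adjusted p = 2.14e-08 by limma) and the lowest WSZ1b (LOC100037548) at 0.57 (SE 0.08), not called. Thionin and puroindoline genes, small proteins that act on membranes of microbes, were represented by 6 probe sets of 4 genes, of which 2 rose and 0 fell (median 0.85), from TTHV at 1.87 to THI1.1 at 0.33. The amylase list held a single gene, LOC543318, whose entry carries the synonyms amy1 and BMY1, so the tables do not settle which kind of amylase it encodes. Its probe set fell from P1 to P3 by 3.98 on the log2 scale, most of it by P2 (-2.96). It fell again from P2 to P3 (-1.02, adjusted p = 0.000301 by limma), a step in which wci was at 0.22 and not called. Its step difference was 1.94 (adjusted p = 0.000149 by limma) and that of wci 1.80. In that contrast 15.3% of all probe sets tested were called higher.

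Markers of other grain tissues were read beside these values. The summed signal of 5 embryo probe sets (EM and EMH2) was 195 to 430 at P1, with 0 of 5 above background on all 3 arrays, 7685 to 8393 at P2 and 158262 to 196448 at P3, and 5 of 5 rose in each comparison. That of 4 green pericarp probe sets (PsbO, PsbP and PRK) was 21952 to 22422, 14086 to 15903 and 5748 to 6350, and 4 of 4 fell from P1 to P3. That of 6 starchy endosperm probe sets (a gliadin, a low-molecular-weight glutenin, GBSS-I and AGP-S) was 165788 to 181340, 169954 to 187955 and 172080 to 226148. The highest of the P3 sums, 226148, was that of P3 replicate 3. The sum also hides opposite directions. From P1 to P3, 2 glutenin probe sets were at log2 changes of 0.36 and 0.51, and GBSS-I and AGP-S at -0.18 and -0.36. Arrays of P1 and P3 did not overlap in any of these, and none was called. The gliadin was at 0.13, with overlap. Of the 6 endosperm probe sets, 1, another glutenin probe set, was called lower from P1 to P3. It was above background on 2 P1 arrays, 0 P2 arrays and 0 P3 arrays. Over all probe sets tested 8.36% were called higher and 4.76% lower from P1 to P3. The share called higher was 6.89% from P1 to P2 and 4.46% from P2 to P3. No marker was at 0, but a signal above 0 does not by itself show detection. An EM probe set read 34.2 to 50.5 at P1, above background on 0 of 3 arrays. The part of these tissues in the courses of XIP-I and wci was not tested.

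Scaling matters most for P2. When arrays were scaled to the poly-A controls, all probe sets together shifted: their median log2 value became -0.83 from P1 to P2 and 1.07 from P2 to P3, against 0.01 and 0.07 as deposited. On that scale the log2 values of XIP-I were 0.50 and 0.42 from P1 to P2, which ended both calls, and 1.87 and 1.83 from P2 to P3. All 7 members passed from P2 to P3 there, as did 18736 of 36669 probe sets, 18545 of them higher. Relative to the median of all probe sets, XIP-I was at 1.33 and 1.25 from P1 to P2 and wci at -1.59. Those values are the same with and without that scaling by construction, since a single factor per array cancels in them. From P1 to P3 the calls of XIP-I and wci held in 22 of 22 alternatives, with log2 changes of 2.03 to 2.37 and 1.92 to 2.26 for XIP-I.

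**Figure D5:**
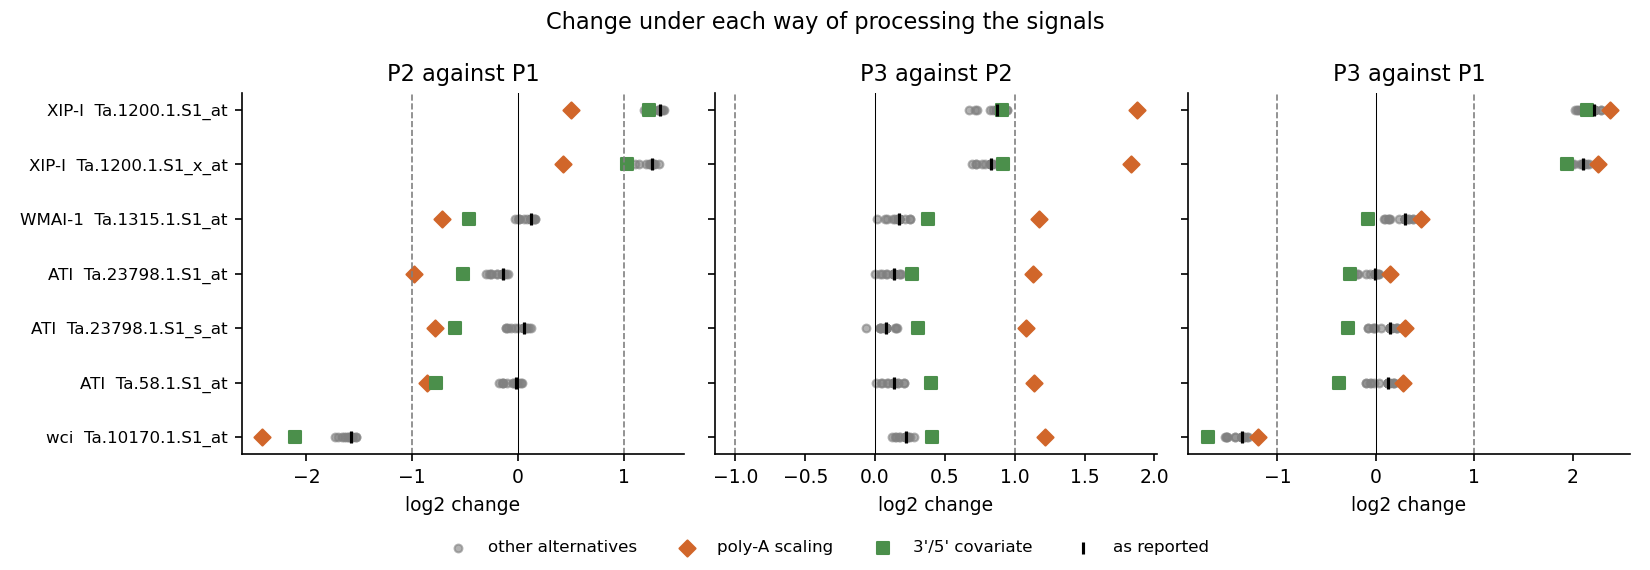
Log2 change of each probe set as reported (bar) and under 22 alternatives (points), with dashed lines at 2-fold. From P1 to P3 XIP-I stays at 1.92 or more and wci at -1.20 or less, while poly-A scaling (diamonds) displaces all 7 probe sets in both comparisons with P2.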

How the data were processed

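Whole grain RNA of 9 samples was hybridized to 9 arrays. The deposited values are linear probe set intensity values (signals) that the authors made with MAS5, per the submitters' processing notes, which give no version. Each array had a trimmed mean of 500.1 (2% off each end). The 175 control probe sets were left out. The platform table pairs 1273 of 61115 probe sets with a single gene symbol and leaves 59842 unnamed, with 0 under several symbols. All 4 genes were found in RefSeq's table, used for synonyms only.

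The authors' deposited signals were put on the log2 scale (pseudocount 0), and the 40% of probe sets lowest in mean log2 signal were dropped. limma 3.58.1 in R 4.3.3 fitted all 9 arrays with phase as factor and an intensity trend, leaving 6 residual degrees of freedom, and p-values were adjusted by Benjamini-Hochberg over 36669 probe sets. The fit was tested on simulated data with independent errors and no array effects. That test does not cover shifts such as that of P3 replicate 3. Background was the 95th percentile of 64 reporter probe sets per array, 89.4 to 153.3, and every member signal was at least 87.2 times it. Members, lists, tests and naming rules (every member probe set, the 3 named genes most correlated with each gene, the highest and lowest change of each list) were chosen with earlier results of these data known, and LOC543281 after its annotation was seen. Alternatives covered scaling, filter, pseudocount, floor, variance model, samples, replicate block, the wheat 3-prime excess and each array left out. P-values set a difference between phases against the spread of arrays within phases. limma pools that spread over the 3 phases and draws it towards the intensity trend. The number of arrays, 3 per phase, limits precision.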

Additional observations from a re-analysis of the deposited data

How the results depend on the processing

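The calls of XIP-I and wci from P1 to P3 held under 22 of 22 alternatives, and those of XIP-I from P1 to P2 under 20 of 22. Leaving out 1 array gave 4541 to 4863 probe sets called from P1 to P3 (4813 with all arrays), 4281 to 4659 from P1 to P2 (4652) and 2337 to 2714 from P2 to P3 (2650). Members called in the step difference were 1 with all arrays and 1 to 3 with 1 left out, 3 under quantile normalization, 3 with dim signals raised to background and 4 with quantile normalization and no P3 replicate 3. Poly-A scaling gave 13616 probe sets from P1 to P2 with 1 member, 18736 from P2 to P3 with 7 members, and 27027 in the step difference with 7 members, where XIP-I reversed to 1.37 and 1.41. The mean log2 level of the poly-A controls, which this scaling takes off every probe set of an array, differed by phase. It was 10.98 to 11.05 on P1 arrays, 11.85 to 11.87 on P2 arrays and 10.84 to 10.87 on P3 arrays. Hybridization control scaling gave 6107 in the step difference (10166). With the wheat 3-prime excess as covariate 2142, 552 (1 member) and 1638 probe sets were called from P1 to P3, P1 to P2 and P2 to P3, and 353 in the step difference. Standard errors widened, in a fit that cannot fully tell this excess from phase. Rises made up 63.7% of calls from P1 to P3, or 48.0% under median scaling, 49.0% under hybridization control scaling and 75.9% under poly-A scaling. From P1 to P2 they made up 54.3%, or 42.5%, 39.6% and 5.81%, and from P2 to P3 61.7%, or 99.0% under poly-A scaling. In the step difference they made up 55.2%, or 65.9% under hybridization control scaling and 98.2% under poly-A scaling. With the replicate block 4773, 4574, 2597 and 9464 probe sets were called, and 3, 3, 0 and 1 members, the same counts as without it. The labels do not pair the numbers, and deviations of same-numbered arrays correlated at -0.05 to 0.03 over 9 pairs.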
